A study of Mus musculus with 18 samples.

Results

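Mouse embryonic stem cells (mESCs) were compared with mouse embryonic fibroblasts (MEFs), the cells from which the induced pluripotent stem cells (iPSCs) of the study were made. These were 6 of the 18 arrays of the series, 3 of mESCs and 3 of MEFs, and the comparison covered all 45037 probe sets of the Affymetrix mouse array that are not controls. A probe set is a group of short probes read together as 1 transcript. The labels gave every sample the same genotype, B6.Cg with the allele Gt (ROSA) 26Sortm1 (rtTA*M2) of the Jae/J stock, together with B6.129S4-POU5f1tm2Jae/J. By these labels both groups carried the doxycycline-dependent activator rtTA and a GFP reporter at the Oct4 locus. The paper states this genotype for the MEFs used to make iPSCs and gives none for the mESCs, so for the mESCs it rests on the label alone. The MEFs were prepared from E13.5 embryos, were used within 4 passages and grew in DMEM with 10% serum. The mESCs grew with LIF and a serum replacement, and no doxycycline was named for either group. The study kept its mESCs and iPSCs on feeder MEFs, so RNA of feeder cells may be part of the mESC samples, and this was not tested. The 3 MEF samples were labelled as biological replicates, but the description of the series names 3 mESC clones and 1 primary MEF culture, so the spread between arrays may be partly technical.

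Embryonic stem cells come from the inner cell mass of the blastocyst, divide quickly and are held in an undifferentiated state by transcription factors such as Oct4, Sox2 and Nanog. They grow as tight colonies joined by E-cadherin and use LIF signalling for self-renewal. Embryonic fibroblasts are mesenchymal cells that secrete and remodel collagen-rich matrix, signal to their neighbours with growth factors and chemokines, and keep a record of their position in the body as Hox gene expression. The passage from one state to the other is the change that reprogramming is meant to bring about.

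The deposited values were log2 values from which each probe set's median over the 18 arrays had been subtracted. A value of 0 therefore marks the middle of all arrays, most of which were pluripotent cells, and it does not give a level. Values can be compared between arrays for 1 probe set, and not between probe sets, and whether a transcript was detected in a given array is unknown. In total RNA of a culture, fewer cells expressing a gene and less RNA per cell cannot be told apart.

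One array stood apart. Over all probe sets, the root mean square log2 difference between MEF 2 and MEF 3 was 0.236, and those between the mESC arrays were 0.258 to 0.290, whereas MEF 1 differed from MEF 2 by 0.864 and from MEF 3 by 0.883. The distance to the mESC arrays was 1.28 to 1.30 for MEF 1 and 1.44 to 1.47 for MEF 2 and MEF 3. The array weights that limma estimates from how well an array follows its group were 0.0757 for MEF 1, 2.61 for MEF 2 and 0.900 for MEF 3. For this reason each gene below is described with its value in MEF 1 beside those in MEF 2 and MEF 3. The position of MEF 1 is its place on the line from the mean of MEF 2 and MEF 3, at 0, to the mESC mean, at 1, so a position over 0.5 means that MEF 1 was nearer to the mESCs than to the other MEFs, and a negative position means that it lay on the far side of them.

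In limma with Benjamini-Hochberg adjustment over all probe sets, 11217 of 45037 probe sets (24.9%) passed an adjusted p under 0.05 with a log2 difference of at least 1. Of these, 6016 (13.4% of all) were higher and 5201 (11.5%) were lower in mESCs. The balance turned with the size of the difference: at a log2 difference of at least 2, 2272 probe sets were higher and 2459 lower, and at 5, which is 32-fold, 196 were higher and 336 lower. Gene symbols were given for 931 probe sets only, and 904 of them named a single gene, which made 687 genes, 361 higher and 326 lower in mESCs. The authors had listed these probe sets because every mESC and iPSC array differed at least 10-fold from the MEF mean, so their differences between mESCs and MEFs are a description and were given no test here. All 931 passed the threshold above, against the 24.9% of all probe sets, and nothing is read from that count. The median log2 difference was 4.65 over the 361 higher genes and -4.97 over the 326 lower genes. The median SD between mESC arrays was 0.117 for the higher and 0.170 for the lower genes, and that between MEF arrays was 0.435 and 1.15. After quantile normalization, which gives all arrays the same spread, the median absolute difference over the 687 genes was 1.71 in place of 4.79. Cdh1, for one, differed by 3.83 in place of 9.15. The values were already centred on medians over mostly pluripotent arrays, and their SD over probe sets was 1.19 to 1.39 in MEF and 0.393 to 0.422 in mESC arrays. Equal spreads thus shrink MEF differences whatever their source, so this setting cannot show which size is right.

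A marker had a symbol only where the authors' lists held it, so its direction was fixed by that choice, and the counts that follow are no check of the labels. Of 11 mESC markers, 10 had a symbol, and all 10 were higher in mESCs by 6.48 to 10.05 on the log2 scale. The groups did not overlap for these 10, nor for any of the 361 higher genes, so nothing is read from that. Of 13 fibroblast markers, 8 had a symbol, and all 8 were higher in MEFs by 4.10 to 8.71. Utf1, Col1a2, Thy1, Fn1, Vim and S100a4 had no symbol in the files, so they were not assessed. Among 9 lists with 159 markers of trophoblast, endoderm, neural, leukocyte, endothelial, muscle, cartilage and bone, fat and red blood cells, 9 markers had a symbol, and 3 of the lists had none. The same choice lies behind every gene list below. Listed genes without a symbol were not assessed, so counts and medians describe only genes that the authors' lists held.

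**Figure D1:**
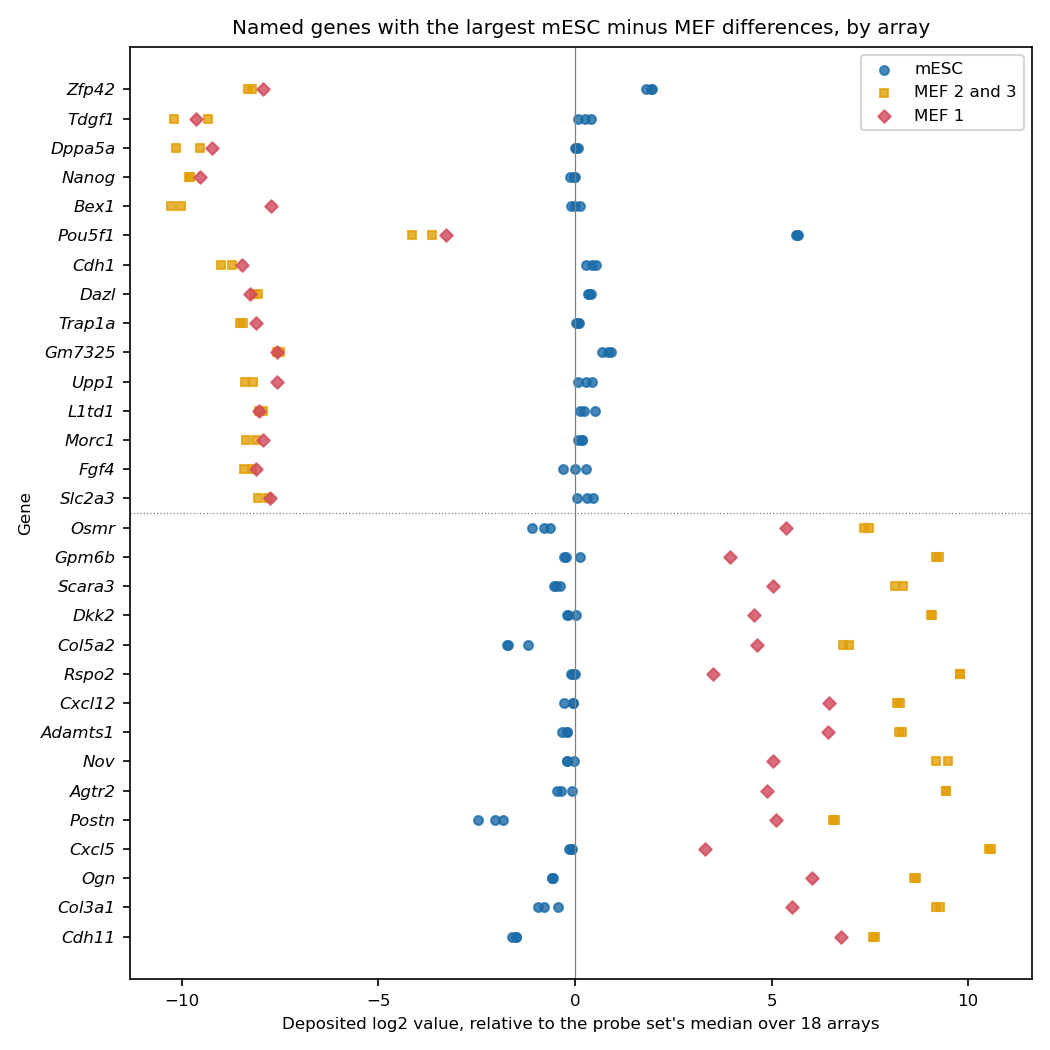
Deposited log2 values (x axis, relative to the median of 18 arrays) of the 15 genes highest and the 15 lowest by mESC minus MEF difference, 1 row per gene and 1 point per array (circles, mESCs; squares, MEF 2 and MEF 3; diamonds, MEF 1). MEF 1 lies close to the other MEFs for most of the upper genes and between them and the mESCs for the lower genes, as for Cxcl5 at 3.30 against 10.58 and 10.53.

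Core pluripotency genes were among the genes with the largest differences. All 11 of the 18 listed core pluripotency genes that had a symbol were higher in mESCs, with a median log2 difference of 7.55. Zfp42 (Rex1), a zinc finger protein used as a marker of undifferentiated cells, was at 1.95, 1.94 and 1.81 in the mESC arrays and at -7.94, -8.21 and -8.31 in MEF 1, MEF 2 and MEF 3. Its difference of 10.05 ± 0.18 (SE), or 1063-fold, was the highest of the 687 genes, and the 3 MEF arrays lay close together. Tdgf1 (Cripto), a co-receptor for Nodal, followed with 9.97, the RNA-binding protein gene Dppa5a with 9.67 and Nanog with 9.67. Nanog was at -0.02, -0.11 and -0.01 in mESCs and at -9.53, -9.79 and -9.82 in MEFs. Pou5f1, which encodes Oct4, was at 5.62, 5.66 and 5.66 in mESCs and at -3.27, -3.62 and -4.13 in MEFs. The Pou5f1 values in mESCs stood far above 0, which for this probe set was the middle of arrays made up mostly of iPSCs.

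Other genes among the 15 with the highest differences belonged to no list. Bex1, an X-linked gene, was at 0.00, -0.11 and 0.13 in mESCs and at -7.72, -10.01 and -10.27 in MEF 1, MEF 2 and MEF 3, a difference of 9.34. Trap1a, a tumour antigen gene, differed by 8.43, Gm7325 by 8.37, the RNA-binding protein gene L1td1 by 8.30 and Morc1, which acts in transposon silencing in the male germline, by 8.28. For these 4 genes the 3 MEF arrays lay close together.

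Sox2 was the core factor whose MEF arrays were least alike. It was at 0.46, 0.24 and 0.44 in mESCs, at -8.41 in MEF 1 and at -5.24 and -5.26 in MEF 2 and MEF 3. MEF 1 was thus on the far side of the other MEFs, at a position of -0.56, and the difference was 8.79 against MEF 1 and 5.63 against the mean of MEF 2 and MEF 3. Lin28a, an RNA-binding protein that blocks let-7 maturation, had the smallest difference of the list, 5.71. The position of MEF 1 was at most 0.07 for each of the 11 genes.

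Naive pluripotency genes, which mark the state of the preimplantation epiblast, had a symbol for 17 of 21 listed. All 17 were higher in mESCs, with a median difference of 6.33. Fgf4, the growth factor that stem cells secrete, differed by 8.24, Dppa2 by 8.10, Fbxo15, an Oct4 target, by 7.67 and Eras, a Ras protein of stem cells, by 7.53. The orphan nuclear receptor gene Esrrb was at -0.14, 0.14 and -0.11 in mESCs and at -6.58, -6.53 and -6.45 in MEFs, so that its 3 MEF arrays were nearly equal. Tbx3, a T-box factor also used in limb mesenchyme, had the smallest difference of the list, 3.87, and was the 1 gene of the list at which MEF 1 was past the midpoint. Tbx3 was at -1.84 in MEF 1 and at -5.09 and -4.96 in MEF 2 and MEF 3. Tfcp2l1, a factor downstream of LIF, went the other way, at -6.07 in MEF 1 against -4.35 and -3.92.

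The 5 genes of the primed or formative state with a symbol, out of 14 listed, were also higher in these mESCs than in MEFs. Otx2 differed by 6.46, Dnmt3l by 6.11, Zic2 by 5.16, Nodal by 4.47 and Dnmt3b by 4.34. The position of MEF 1 was between -0.11 and 0.03 for these genes. After quantile normalization the differences were 2.55 for Otx2, 1.98 for Dnmt3l, 0.91 for Nodal and 0.99 for Dnmt3b, and these 4 no longer passed an adjusted p of 0.05. None of the 12 listed genes of the 2-cell-like state had a symbol.

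Germline genes with a symbol were 13 of 30 listed, all higher in mESCs, with a median difference of 4.92. Dazl, a translational regulator of germ cells, was at 0.40, 0.35 and 0.34 in mESCs and at -8.27, -8.07 and -8.16 in MEFs, a difference of 8.53. Rhox5, a homeobox gene on the X chromosome, differed by 7.06, Mael, which acts in transposon silencing, by 6.27, and Mybl2, also on the cell cycle list, by 6.22. Genes of the meiotic chromosome axis and synapse were among them, namely Hormad1 with 6.21, Sycp3 with 4.90, Syce2 with 4.53 and Syce1 with 4.02. Ddx4, the germ cell helicase, differed by 4.58 and Piwil2, which binds piRNAs, by 4.01, the smallest of the list. MEF 1 was nearer to the other MEFs than to the mESCs for all 13, with positions from -0.31 to 0.26.

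In the list of chromatin and DNA methylation, 12 of 26 genes had a symbol, and all were higher in mESCs, with a median difference of 4.41. Among the 12 were Lin28a and Mybl2, which are also on the core pluripotency and cell cycle lists and are not chromatin regulators as such. The list included both arms of DNA methylation control. Uhrf1, which guides maintenance methylation, differed by 5.19, the helicase gene Hells by 5.60, the cofactor of de novo methylation Dnmt3l by 6.11, and Tet1, which oxidizes methylcytosine, by 4.38. Polycomb genes were Ezh2 with 3.97, Jarid2 with 4.31 and Mtf2 with 3.94, the smallest. Uhrf1 was at -3.20 in MEF 1 and at -5.76 and -5.86 in the other MEFs, and Hells at -4.25 against -6.02 and -5.92, whereas Tet1 was at -4.80 in MEF 1 and at -4.44 and -4.84 in the others.

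At all listed genes of DNA replication and mitosis with a symbol, MEF 1 lay between the other MEFs and the mESCs. Of 49 listed cell cycle genes, 20 had a symbol, 19 higher and 1 lower in mESCs. Mycn, a Myc family factor, differed by 6.39, Mybl2 by 6.22, Mcm5, a subunit of the replicative helicase, by 5.82 and Cdc6, which loads that helicase, by 5.63. Mcm2, with 3.78, had the smallest difference. Gas1, a gene named for its expression in growth-arrested fibroblasts, was the 1 gene that was lower in mESCs, with -4.28.

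Mcm5 was at 0.53, 0.60 and 0.45 in mESCs, at -3.75 in MEF 1 and at -6.19 and -5.93 in MEF 2 and MEF 3. Bub1, a kinase of the spindle checkpoint, was at -3.08 in MEF 1 and at -6.54 and -6.20 in the others. MEF 1 was nearer to the mESCs than to the other MEFs for Aurka, Ccnb2, Rrm2, Gas1 and Rbpms, an RNA-binding protein gene that the list also held. All 20 positions were above 0, with a median of 0.358, whereas the median over the 361 higher genes was 0.0806. Gas1 was at 1.16 in MEF 1 and at 5.96 and 5.93 in the other MEFs, a position of 0.81. Mcm3 was the member whose MEF arrays were closest, at -3.67, -3.91 and -3.90.

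Promoter sequence was set beside these groups as a feature that the choice of genes did not use. RefSeq windows of 300 bases, from 250 before to 50 after the first listed transcript start (build GRCm38.p6), were at hand for 511 of the 687 genes. Of 8 short motifs searched on both strands, the E2F motif TTTCCCGC was in 12 of 273 windows of the genes higher in mESCs (4.40%), in 0 of 238 windows of the lower genes and in 1.11% of all 27025 windows (1.46% of the 17492 of protein-coding genes). E2F factors control genes of the S phase. The 12 genes were Cdc6, Mcm3, Mcm7, Hells, Msh6, Ncapg, Cdca7, Nup210, Fam60a, Sycp3, Slc25a31 and 2410076I21Rik. A match is a description of letters and does not show that a factor binds there. Windows of the 3 replication genes and of the meiotic gene Sycp3 are shown because the same letters stood at different distances from the start, and capitals mark the motif, which in all 4 was on the opposite strand (GCGGGAAA). It began 138 bases before the start in Cdc6, 165 before in Mcm7, 147 before in Sycp3 and at base 20 after the start in Mcm3. In Sycp3 the capitals also mark the E-box TCACGTG, read as CACGTGA, which was in 4.76% of the higher, 2.52% of the lower and 3.84% of all windows.
Cdc6 (chr11:98907901-98908200, plus strand): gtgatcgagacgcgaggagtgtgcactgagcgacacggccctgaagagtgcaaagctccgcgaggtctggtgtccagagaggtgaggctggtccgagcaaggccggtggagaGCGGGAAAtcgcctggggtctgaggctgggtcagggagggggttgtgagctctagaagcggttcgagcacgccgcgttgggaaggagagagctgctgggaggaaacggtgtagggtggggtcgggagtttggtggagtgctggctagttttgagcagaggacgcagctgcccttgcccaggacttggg
Mcm3 (chr1:20820263-20820562, minus strand): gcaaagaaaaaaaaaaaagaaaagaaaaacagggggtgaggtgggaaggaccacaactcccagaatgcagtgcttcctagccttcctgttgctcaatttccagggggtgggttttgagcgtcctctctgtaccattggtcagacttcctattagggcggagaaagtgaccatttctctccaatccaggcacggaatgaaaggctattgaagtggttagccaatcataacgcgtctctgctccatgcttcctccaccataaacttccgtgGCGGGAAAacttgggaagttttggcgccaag
Mcm7 (chr5:138171834-138172133, minus strand): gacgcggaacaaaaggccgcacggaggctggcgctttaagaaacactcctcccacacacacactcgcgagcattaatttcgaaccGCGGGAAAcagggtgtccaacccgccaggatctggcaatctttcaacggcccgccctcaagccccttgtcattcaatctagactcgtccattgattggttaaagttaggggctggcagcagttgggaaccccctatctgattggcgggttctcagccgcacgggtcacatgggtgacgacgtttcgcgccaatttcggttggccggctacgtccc
Sycp3 (chr10:88459337-88459636, plus strand): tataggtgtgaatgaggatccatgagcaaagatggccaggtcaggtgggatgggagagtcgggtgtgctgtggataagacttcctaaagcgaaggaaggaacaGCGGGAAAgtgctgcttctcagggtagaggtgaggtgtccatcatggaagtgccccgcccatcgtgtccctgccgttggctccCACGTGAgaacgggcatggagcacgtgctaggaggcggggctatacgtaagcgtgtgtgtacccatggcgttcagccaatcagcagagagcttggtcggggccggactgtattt

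CpG dinucleotides were more frequent in the windows of both groups than in windows at large. The median was 19 per 300 bases for the higher genes, 15 for the lower genes, 13 for protein-coding genes and 7 for all windows. At least 15 CpG were in 60.8% of the higher, 52.1% of the lower and 47.4% of the protein-coding windows. Among named lists, the median was 19 for cell cycle and 21 for germline genes and 11 for core pluripotency genes. The other motifs, in the order of higher, lower and all windows, were the GC box GGGCGG in 64.8%, 55.0% and 35.9% (46.3% of protein-coding windows), TTTGAA of mitotic genes in 63 of 273, 31 of 238 and 4893 of 27025 (16.5% of protein-coding windows), and the TATA box TATAAA in 8.42%, 16.0% and 14.2%. The octamer ATGCAAAT was in 2.93%, 3.36% and 1.75%, the AP-1 motif TGANTCA in 6.23%, 5.46% and 7.93%, and an NF-kB motif in 2.20%, 2.10% and 1.62%. These motifs can overlap each other. These are counts over genes that the authors picked, and no test was made.

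Epithelial genes with a symbol were 12 of 40 listed, all higher in mESCs, with a median difference of 4.74. Cdh1, which encodes E-cadherin, was at 0.42, 0.29 and 0.54 in mESCs and at -8.48, -8.73 and -9.00 in MEFs, a difference of 9.15. Epcam, the adhesion protein that the study used for reprogramming, was at -0.53, -0.73 and -0.38 in mESCs and at -7.03, -7.62 and -7.42 in MEFs, a difference of 6.81 ± 0.17 (SE). The desmosome genes Dsg2 and Dsp differed by 6.02 and 5.41, and the polarity gene Pard6b had the smallest difference, 3.52. MEF 1 was nearer to the mESCs for Pkp2, a desmosome protein, which was at -1.08 in MEF 1 and at -6.23 and -5.34 in MEF 2 and MEF 3.

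The list of metabolism in pluripotent cells was put together from genes known in such cells, so its direction is largely built in. Of its 48 genes, 9 had a symbol, 8 of them higher in mESCs. Of 62 listed transporters, pumps and channels, 13 had a symbol, 10 of them higher. Upp1, which breaks down uridine, differed by 8.31, Slc2a3, a glucose transporter, by 8.15, Tdh, the threonine dehydrogenase of mouse stem cells, by 6.92 and Gldc, of glycine cleavage, by 5.65. Tdh was at 0.37, 0.97 and 0.24 in mESCs and at -6.38, -6.57 and -6.22 in MEFs, with no MEF array apart. Bcat1, a branched-chain aminotransferase, had the smallest difference, 4.19, and was at -1.31 in MEF 1 against -5.82 and -5.34 in the other MEFs. Lower in mESCs were Mgst1, a glutathione transferase, with -6.45, the water channel gene Aqp1 with -6.84 and the calcium channel subunit gene Cacna2d1 with -4.92. Aqp3, another water channel gene, was higher in mESCs by 5.78 and the solute carrier gene Slc35f2 by 5.50. Slc38a4, an amino acid transporter, had a difference of 3.57 and a MEF 1 position of 0.71.

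**Figure D2:**
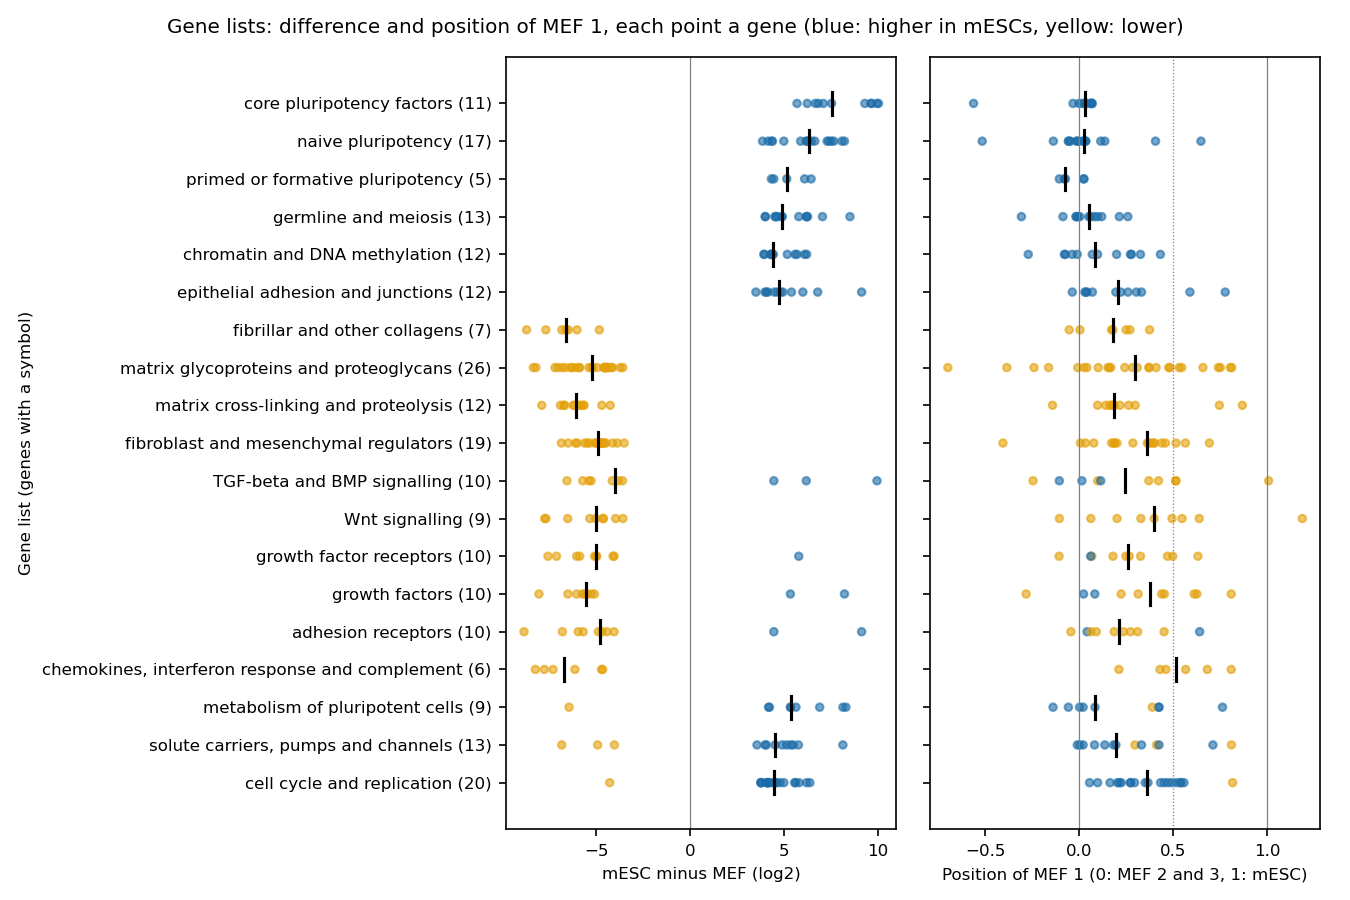
Left, mESC minus MEF log2 difference, and right, position of MEF 1 (0 is the mean of MEF 2 and MEF 3, 1 the mESC mean, dotted line 0.5), for the lists with at least 5 genes with a symbol. Each point is a gene, blue where higher and yellow where lower in mESCs, and bars are medians. Core pluripotency genes have a median position near 0 (0.0313), and the chemokine list has the median furthest to the right (0.513).

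Extracellular matrix genes were on 3 lists, of 23 collagens, 62 matrix glycoproteins and proteoglycans and 48 genes of matrix cross-linking and proteolysis. In this order, 7, 26 and 12 of them had a symbol. All of those were lower in mESCs, with medians of -6.62, -5.22 and -6.05. None of the 56 listed contractile and cytoskeletal genes had a symbol. Col3a1, a fibrillar collagen, was at -0.78, -0.95 and -0.44 in mESCs, at 5.51 in MEF 1 and at 9.19 and 9.28 in MEF 2 and MEF 3. Its difference was -8.71 ± 0.98 (SE) with all MEF arrays, -6.24 against MEF 1 and -9.95 against the other MEFs. Col1a1 was at 5.49 in MEF 1 and at 5.19 and 5.15 in the others, so the fibroblast collagens were not all lower in MEF 1. Col5a2 differed by -7.69, Col6a1 by -6.84, Col6a3 by -6.62 and Col6a2, the smallest, by -4.84.

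Ogn, a small leucine-rich proteoglycan, was at -0.56, -0.58 and -0.57 in mESCs and at 6.04, 8.63 and 8.68 in MEF 1, MEF 2 and MEF 3. Postn (periostin) differed by -8.21, Mgp, an inhibitor of calcification, by -7.21 and Aspn by -7.05. The smallest difference was that of Igfbp7, -3.58. MEF 1 was past the midpoint for 7 of the 26 genes, namely Lum, Sned1, Wisp2, Lama4, Mfap2, Igfbp3 and Igfbp4, and was higher than the other MEFs for Smoc2, at 5.86 against 3.60 and 3.22, and for the tenascin gene Tnc, with a position of -0.38. In the list of matrix cross-linking and proteolysis, Adamts1 differed by -7.91, Serpinf1 by -6.91, the metalloproteinase gene Mmp3 by -6.72, Timp3 by -6.69 and Adamts2, the smallest, by -4.25. Mmp3 was at 2.28 in MEF 1 and at 8.88 and 8.98 in the others, and Adamts2, which trims procollagen, was at 0.81 against 6.00 and 5.98, close to the mESC values of -0.07, -0.01 and 0.12.

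Transcription factors of mesenchyme with a symbol were 19 of 75 listed, all lower in mESCs, with a median of -4.88. Prrx1, a homeobox factor of limb and skin mesenchyme, was at -0.81, -0.86 and -0.49 in mESCs and at 5.98, 6.21 and 6.22 in MEFs, a difference of -6.86. Aebp1 differed by -6.49, Fosl2 by -6.10, Nfix by -6.02 and Gli3, a mediator of Hedgehog signalling, by -3.51, the smallest. Twist1 was at 3.39 in MEF 1 and at 5.61 and 5.50 in the other MEFs, while Twist2 was at 4.73 in MEF 1 and at 3.19 and 3.33, so these related genes were ordered differently in the MEF arrays. MEF 1 was past the midpoint for Osr1, Ebf1 and Gli3.

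Hox genes with a symbol were 3 of 33 listed, all lower in mESCs and all with MEF 1 at or past the midpoint. Hoxa10 was at 2.52 in MEF 1 and at 6.11 and 6.02 in the other MEFs, and Hoxa9 was at 2.41 against 4.69 and 5.01. Hoxd13, which patterns the far end of limbs and the tail, was at 0.43, 0.22 and 0.31 in mESCs, at -0.09 in MEF 1 and at 6.58 and 6.72 in MEF 2 and MEF 3. For Hoxd13 the difference of -4.09 therefore rested on MEF 2 and MEF 3, and the mESC mean was 0.41 above MEF 1. According to the methods, the head, feet, tail and organs were removed from embryos for feeder MEFs, and whether the arrayed MEFs were prepared in the same way was not stated.

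**Figure D3:**
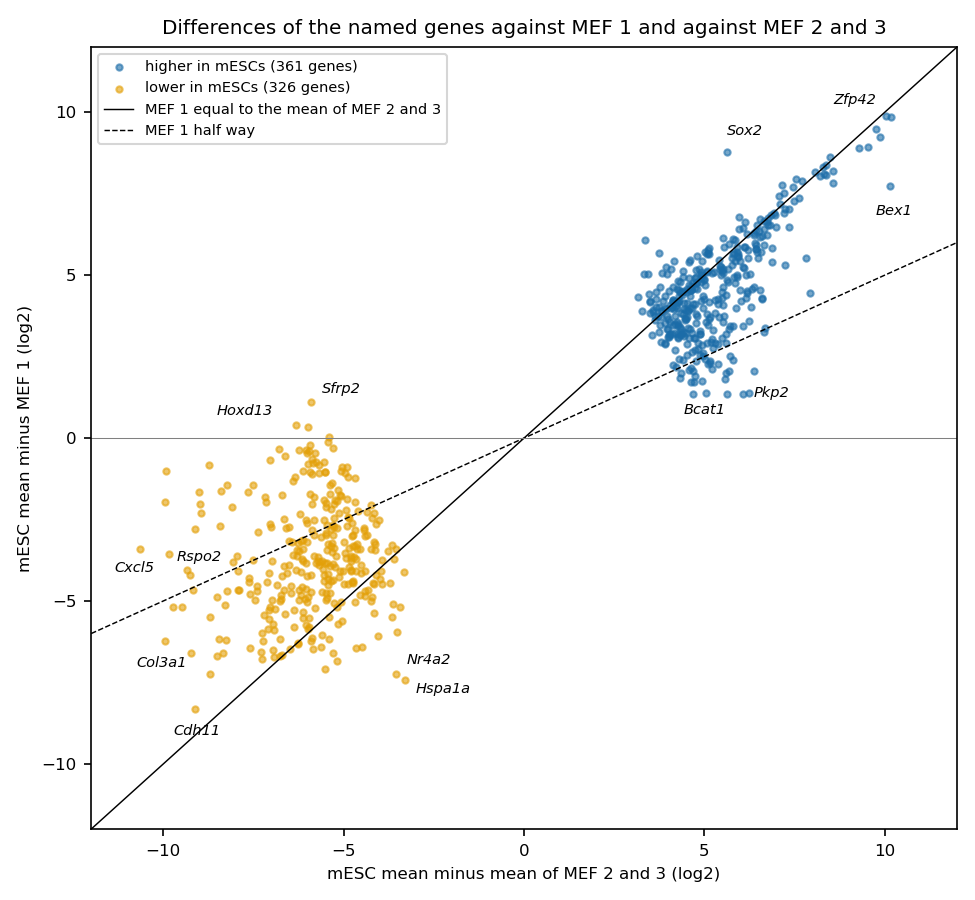
Log2 difference of the mESC mean against MEF 1 (y axis) and against the mean of MEF 2 and MEF 3 (x axis) for 687 genes, blue where higher and yellow where lower in mESCs. On the solid line MEF 1 equals the other MEFs, and on the dashed line it is at the midpoint. Most blue points lie near the solid line (28 of 361 past the midpoint), while 97 of 326 yellow points lie past the midpoint, up to Sfrp2 and Hoxd13 above 0.

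Among signalling genes with a symbol, those of the Wnt list were all lower in mESCs, and most of the others were lower too. All 9 Wnt pathway genes with a symbol were lower, with a median of -5.03, among them Rspo2 with -7.75 and Rspo3 with -6.52, which strengthen Wnt signals and had MEF 1 past the midpoint, and Dkk2 with -7.68, a Wnt antagonist. Rspo2 was at -0.06, 0.01 and -0.10 in mESCs, at 3.52 in MEF 1 and at 9.78 and 9.80 in MEF 2 and MEF 3. Wnt5a, a ligand of limb and body mesenchyme, was at 5.39 in MEF 1 and at 4.96 and 4.74 in the others. Sfrp2, a secreted Wnt antagonist, was at 2.78, 2.54 and 2.61 in mESCs, at 1.55 in MEF 1 and at 8.56 and 8.55 in MEF 2 and MEF 3. It had the smallest difference of the list, -3.58, and the highest MEF 1 position of all 687 genes, 1.19, and the sign turned after quantile normalization, to 0.38.

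In the TGF-beta and BMP list, the 3 genes higher in mESCs were Tdgf1, Nodal and Gdf3, which act in 1 pathway of the early embryo, and the 7 lower genes included Tgfb2 with -6.56 and the BMP antagonist gene Grem1 with -5.72. Bmp2, Tgfbr3 and Gdf10 had MEF 1 past the midpoint, and Gdf10 was at -0.06 in MEF 1 and at 5.28 and 5.49 in the others. Kit, a receptor of germ and stem cells, was higher in mESCs by 5.80, whereas its ligand gene Kitl differed by -6.51. Of the other growth factor genes, Fgf4 and Mdk were higher in mESCs and 7 besides Kitl were lower, among them Nov (Ccn3) with -8.05 and Ptn with -6.04, and Figf (Vegfd), with -5.10, had the smallest difference. Angpt1 was at 1.27 in MEF 1 and at 7.33 and 7.35 in the other MEFs, and Igf1 and Gas6 also had MEF 1 past the midpoint. Of the receptor genes, Osmr, a receptor of the LIF family, differed by -7.57, Ghr by -7.12, Il1rl1 by -6.05 and Epha3 by -5.88. Il13ra1 had the smallest difference, -4.05, and Pdgfra, with -4.10, had a MEF 1 position of 0.63.

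Of 47 listed adhesion receptor genes, 10 had a symbol, 2 higher and 8 lower in mESCs. Cdh11, the mesenchymal cadherin, had the lowest difference of the 687 genes, -8.85 ± 0.98 (SE), in contrast with Cdh1 at 9.15. Cdh11 was at -1.49, -1.49 and -1.59 in mESCs and at 6.78, 7.58 and 7.63 in MEFs, with no overlap. Nrp1 differed by -6.80 and Itgbl1 by -5.96, and Itga6, a laminin receptor subunit, was higher in mESCs by 4.47 with a MEF 1 position of 0.64. Pcdhb17 had the smallest difference, -4.05.

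The chemokine, interferon and complement list had the highest median MEF 1 position, 0.513, of any list with at least 5 genes with a symbol. Of 61 listed genes, 6 had a symbol, namely Cxcl1, Cxcl5, Cxcl12, C1s, Tlr4 and Il1r1, and all 6 were lower in mESCs. Cxcl5, a neutrophil chemokine, was at -0.15, -0.09 and -0.08 in mESCs, at 3.30 in MEF 1 and at 10.58 and 10.53 in MEF 2 and MEF 3. The difference was -3.41 against MEF 1 and -10.66 against the other MEFs. Cxcl12, a stromal chemokine, differed much less between the MEFs, at 6.47, 8.20 and 8.26. Cxcl1 differed from the mESC mean by -7.30, and the complement protease gene C1s was at 0.92 in MEF 1 and at 7.62 and 7.79 in the others. Tlr4, a receptor for bacterial lipopolysaccharide, was at 2.51 against 5.80 and 5.80, and Il1r1 had the smallest difference, -4.66.

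Further genes among the 15 lowest belonged to no list. Agtr2, an angiotensin II receptor gene, was at -0.37, -0.45 and -0.07 in mESCs, at 4.89 in MEF 1 and at 9.43 in both other MEFs, a difference of -8.21. The scavenger receptor gene Scara3 differed by -7.64 and the membrane proteolipid gene Gpm6b by -7.58, with MEF 1 positions of 0.37 and 0.57.

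Genes outside the lists with high MEF 1 positions were singled out after their values were seen. Lcn2, an iron-binding protein of inflammation, was at 1.95 in MEF 1 and at 9.82 and 10.06 in MEF 2 and MEF 3. Lbp, the lipopolysaccharide-binding protein gene, was at 0.46 against 6.76 and 7.05, and Hp (haptoglobin) at 0.09 against 5.58 and 6.04, with mESC values from -0.20 to 0.23 for both genes. The other genes with the highest positions were Galnt9, at 1.05, and Fgl2, at 0.98. For 5 genes, Sfrp2, Hoxd13, Galnt9, Gdf10 and Fgl2, the mESC and MEF values overlapped because of MEF 1.

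At the other end stood genes that were more unlike mESCs in MEF 1 than in the other MEFs. Hspa1a, the inducible heat shock protein 70, was at 0.23, -0.48 and 0.16 in mESCs, at 7.38 in MEF 1 and at 3.15 and 3.42 in MEF 2 and MEF 3. Nr4a2, an immediate early nuclear receptor gene, was at 6.57 in MEF 1 and at 2.86 and 2.91 in the others. These genes, Phf11d, Smoc2 and Sox2 had the 5 lowest positions, from -1.24 to -0.56. Phf11d was at -5.99 in MEF 1 and at -3.32 and -3.20 in the others.

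Sex-linked transcripts differed between the MEF arrays as well. Eif2s3y, on the Y chromosome, was at 0.14, 0.15 and 0.01 in mESCs, at -1.95 in MEF 1 and at -6.23 and -6.31 in MEF 2 and MEF 3, and Ddx3y was at -1.79 against -5.80 and -5.31. Xist, the RNA that silences the X chromosome, was at 5.18, 5.84 and 6.07 in the MEFs and at -0.23, -0.22 and -0.06 in mESCs. The part of embryo sex in the position of MEF 1 for other genes was not tested. Genes on the X chromosome were 20 of 358 placed genes higher in mESCs (5.59%) and 20 of 324 lower genes (6.17%), against 4.41% of protein-coding RefSeq genes.

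Other small lists held single genes. Of the imprinted genes, 3 of 34 had a symbol: Phlda2 was higher in mESCs by 4.19, Dlk1 differed by -4.11 and Dcn (decorin, also in the matrix list) by -6.82. Of cartilage and bone markers, Comp differed by -5.96, Runx2 by -5.06 and Phex by -4.53, and Alpl, the alkaline phosphatase also used to stain stem cell colonies, was higher in mESCs by 4.30. Comp and Phex had MEF 1 positions of 0.83 and 0.71. Gpnmb, of the lysosome and stress list, differed by -5.35. Single markers of other cells that were higher in mESCs were Tfap2c of trophoblast with 5.31, Mylpf of muscle with 5.93, Laptm5 of leukocytes with 4.16 and Pecam1 of endothelium, which was 18.3-fold higher, and Pecam1 and Tfap2c are also known from stem cells.

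Whether MEF 1 lay on the MEF side was then asked over all probe sets, with each array left out of the test in turn so that it did not choose the probe sets on which it was judged. Without MEF 1, 12031 probe sets passed, 10480 of which also passed with all arrays. On these 12031, MEF 1 was nearer to the other MEFs than to the mESCs for 70.4%, its median position was 0.250, and it was at or past the mESC mean for 6.39%. The same share was 94.6% for MEF 2 and 94.3% for MEF 3, and 98.6% to 99.8% for the mESC arrays. The share of probe sets past the midpoint in MEF 1 was 20.7% of the 6372 that were higher in mESCs and 39.5% of the 5659 that were lower. These shares are descriptions of 1 array and were not tested.

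**Figure D4:**
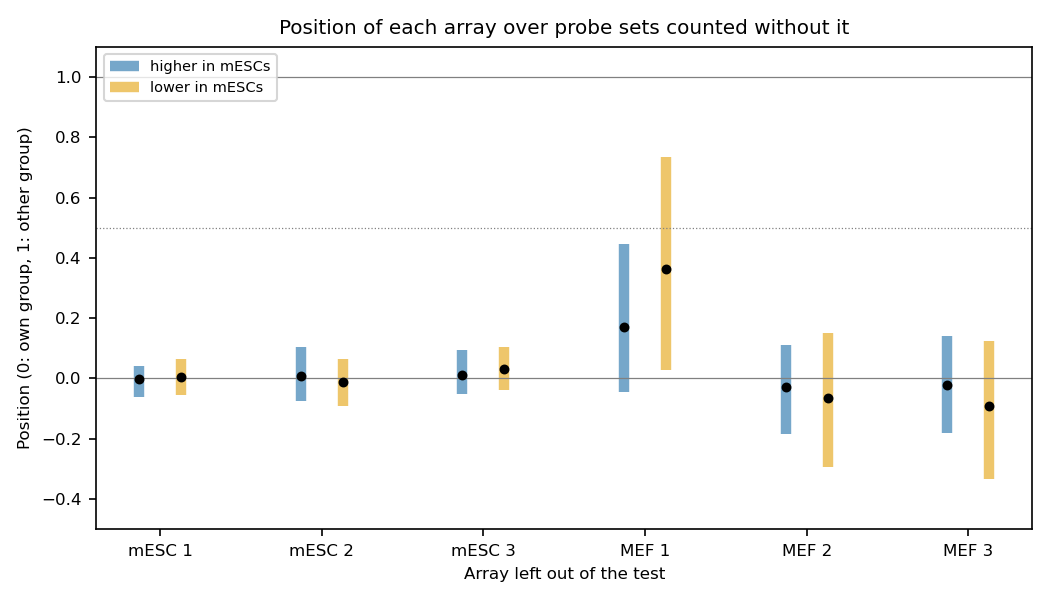
Position of each array (y axis, 0 is the mean of the rest of its own group and 1 the mean of the other group) over the probe sets counted when it was left out, separately for those higher (blue) and lower (yellow) in mESCs. Dots are medians and bars run from the lower to the upper quartile. MEF 1 alone has medians well away from 0, 0.169 and 0.364.

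Among the 687 genes the direction in MEF 1 was mostly that of the other MEFs. For the 361 genes higher in mESCs, MEF 1 was below the mESC mean in all 361, and the difference was at least 10-fold in 283. For the 326 lower genes, MEF 1 was above the mESC mean in 322, by at least 10-fold in 199. Against the mean of MEF 2 and MEF 3, at least 10-fold was reached by 358 and 324 genes. The genes past the midpoint were 28 of 361 (7.76%) and 97 of 326 (29.8%). MEF 1 entered the mean by which the authors chose these genes, so the shares are not independent of it.

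A number of genes were read by more than 1 probe set. Of the 687 genes, 164 had 2 to 4 probe sets with that symbol, all in the same direction, which the choice of probe sets favours. The median range of the difference within a gene was 0.611, and it was over 2 for 15 genes. The widest was that of Slc2a3, with differences from 4.57 to 8.45.

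In the same limma fit, mESCs were also set against the mean of the 3 iPSC groups, made from MEFs with Oct4, EpCAM and EpEX protein (OE + EpEX), with Klf4, EpCAM and EpEX protein (KE + EpEX) or with the 4 OSKM factors, 4 arrays each. Of all probe sets, 1477 (3.28%) passed, 679 higher and 798 lower in mESCs, and of the 931 with a symbol 58 (6.23%) passed, 19 higher and 39 lower. Of the 361 genes higher in mESCs than in MEFs, 16 were also higher in mESCs than in iPSCs and 21 were lower. Of the 326 genes lower in mESCs than in MEFs, 2 were higher and 12 were lower than in iPSCs. The authors' choice of these genes used the iPSC arrays too, each against the MEF mean, so the counts over named genes depend on iPSC values and nothing is read from them. The contrast set 3 mESC arrays against 12 iPSC arrays.

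Of the 11 core pluripotency genes with a symbol, 2 were higher in mESCs than in iPSCs and 0 were lower, and of the 17 naive genes 1 was higher and 1 was lower. These counts and those of the epithelial list below stand beside 3.28% of all probe sets and 6.23% of those with a symbol. Nothing is read from them. Nr5a2, the naive gene that was higher, encodes a nuclear receptor that can stand in for Oct4 in reprogramming and was higher in mESCs than in iPSCs by 1.68 ± 0.13 (SE; limma adjusted p = 2.91e-07), at 1.75, 1.86 and 1.62 against -0.38 to 0.52 in the 12 iPSC arrays. Dnmt3b, of the primed list, was lower in mESCs by 1.06 (limma adjusted p = 0.00878) and Rhox5, of the germline list, was lower by 1.35 (limma adjusted p = 1.33e-05). Nanog, with -0.21 ± 0.12 (SE; limma adjusted p = 0.290), and Esrrb, with -0.05 ± 0.08 (SE; limma adjusted p = 0.778), did not pass. Of the 12 epithelial genes with a symbol, 1 was higher and 3 were lower in mESCs than in iPSCs. Dsp was higher by 1.15, and the lower genes included Pard6b and Cldn4, Cldn4 by 1.61 (limma adjusted p = 0.000316), at -1.35, -1.92 and -1.04 against -0.38 to 0.80. Epcam was lower by 0.66 ± 0.14 (SE; limma adjusted p = 0.00333), under the log2 difference of 1 that was required.

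Of the 45 matrix genes with a symbol, 4 passed against iPSCs and the rest did not, beside 3.28% of all probe sets and 6.23% of those with a symbol, and nothing is read from that count. The 4 were lower in mESCs, Postn by 1.92 (limma adjusted p = 0.0441), Col5a2 by 1.57, Col6a3 by 1.47 (limma adjusted p = 0.00224) and Serpinf1 by 1.33. Col6a3 was at -1.57, -1.69 and -0.99 in mESCs and from -0.43 to 0.80 in the iPSC arrays. Col3a1 was at -0.78, -0.95 and -0.44 in mESCs and ranged from -0.60 to 3.01 in the iPSC arrays, and its difference of -1.27 did not pass (limma adjusted p = 0.360). The iPSC arrays thus spread more widely than the mESC arrays for Col3a1, and the part of remaining fibroblast or feeder RNA in these values was not tested.

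Probe sets without a symbol held further large differences. The 2 highest differed by 7.55 and 6.84, and the 2 lowest by -8.14 and -7.73. The MEF 1 positions of these 4 were from -0.19 to 0.04. For the probe set with -7.73, MEF 1 was at 7.02 and MEF 2 and MEF 3 were at 5.54 and 5.71, so MEF 1 was higher there.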

How the data were processed

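RNA of 18 samples was measured, 1 array each. GeneSpring GX (version not given) was the authors' software, and the submitters' processing notes name MAS5 and RMA without their roles. The deposited log2 values of 45101 probe sets were used after 64 controls were left out; each probe set had median 0 (largest absolute median 5e-07). Intensities and arrays' background were not analysed here, so detection is unknown, and 3 arrays per group limit precision. The labels name Trizol and biotin, the paper RNeasy and Cy3. Columns of fold ratios in the authors' lists were not used; symbols were joined by probe set, and values in both files were equal to within 1e-06. Symbols naming several genes (27 probe sets) were left out. Of 687 genes, 682 matched RefSeq, 35 through an older symbol.

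Limma 3.58.1 (R 4.3.3, lmFit and eBayes) was fitted to all 18 arrays with a mean per group, and p-values were adjusted over 45037 probe sets. SEs and p-values measure only the spread between these samples within groups, taken as equal in all groups though the MEF arrays spread more widely. The step was tested on simulated data. Python 3.11.15, pandas 2.3.3 and numpy 2.4.6 served the rest. A gene was shown by its probe set nearest the gene's median difference. Genes named were the 15 highest and 15 lowest without overlap, in each of 34 lists the 4 largest, the smallest and those with MEF 1 past the midpoint, the 5 at each end of MEF 1 position, and the 5 furthest from iPSCs each way; others named are examples. Lists, genes and tests were chosen with earlier results of these data known. The probe sets above the median spread over the arrays stood in for a filter on dim probe sets. Alternatives tried are given in the closing section. Results for a few genes are not reported here.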

Additional observations from a re-analysis of the deposited data

Results flagged for a closer look

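The 10 named genes furthest from the iPSCs were chosen by the difference of mESCs from the mean of the 3 iPSC groups, so that 9 of them passed in that same limma contrast follows from the choice, and the values are a description. Higher in mESCs were Pou5f1 by 5.49 (limma adjusted p = 3.19e-08), the sodium-proton exchanger gene Slc9b1 by 1.88 (limma adjusted p = 3.65e-05), Zfp42 by 1.81 (limma adjusted p = 2.97e-07) and Triml1 by 1.76 (limma adjusted p = 5.24e-07). The Pou5f1 value came from a single probe set. By Q-PCR and by protein assays, which are other measures, the paper reported Oct4 in iPSCs as comparable to mESCs. The source of this disagreement was not tested. Sfrp2, higher by 2.87, did not pass (limma adjusted p = 0.0590). Lower in mESCs were 2210409E12Rik with -4.13 (limma adjusted p = 7.93e-10), the metalloprotease gene Mep1b with -2.53 (limma adjusted p = 2.02e-06), Gm8267 with -2.44 (limma adjusted p = 0.00149), 2410024N13Rik with -2.38 (limma adjusted p = 1.63e-07) and Nlrp4f, of a family expressed in oocytes, with -2.31 (limma adjusted p = 3.95e-09). For 2210409E12Rik the mESC arrays were at -4.02, -3.72 and -3.97, the MEF arrays at -8.08, -7.57 and -7.21, and the iPSC arrays between -0.26 and 0.74, with no overlap among the 3 kinds of cells, and its difference from MEFs turned to -0.56 after quantile normalization. Mep1b was at -2.36, -1.81 and -2.59 in mESCs and at -6.43, -6.49 and -6.49 in MEFs.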

How the results depend on the processing

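The count of 11217 probe sets became 20096 without a fold threshold and 3466 after quantile normalization, which gives arrays of unequal spread the same spread. An unpaired t-test, which the methods name without tying it to the arrays, was counted without a fold threshold. Its counts therefore stand beside the 20096. It gave 17125 probe sets unadjusted and 11774 with Benjamini-Hochberg adjustment, and 8216 of the latter were among the 11217. The main count was 10960 to 12031 with 1 mESC or MEF array left out (12031 without MEF 1), and other alternatives moved it by less than 1.5 times. The 1477 probe sets that differed from iPSCs became 3469 at 1.5-fold and 6094 without a fold threshold. The t-test, again without a fold threshold, gave 12697 unadjusted and 7277 adjusted. Leaving out 1 array gave 1236 to 1614. The share of 70.4% for MEF 1 was 85.9% after quantile normalization, 73.6% at a log2 difference of at least 3 and 82.0% for probe sets with a symbol. The share of 82.0% is not independent of MEF 1, which entered the mean by which the authors chose those probe sets. Of 153 genes named by the rule, 129 kept direction and an adjusted p under 0.05 after quantile normalization and 22 lost the latter. The signs of 2210409E12Rik (-0.56, limma adjusted p = 0.361) and Sfrp2 (0.38, limma adjusted p = 0.877) turned. Quantile normalization narrows the MEF arrays, which had the widest spread after centring, so smaller differences from MEFs follow from the method. Sfrp2 also missed 0.05 without mESC 2 or 3 or MEF 2 or 3 (differences from -3.56 to -2.41). Same-numbered mESC and MEF arrays share only a number (correlations of deviations from -0.0291 to 0.0333): with the replicate block 11191 and 1451 probe sets passed.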
